A study of Mus musculus with 9 samples.

Results

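The insulin-like growth factor family was followed in 9 aortas of Apoe-/- mice through 9 genes: the ligands Igf1 and Igf2, the receptor Igf1r, and the binding proteins Igfbp2, Igfbp3, Igfbp4, Igfbp5, Igfbp6 and Igfbp7. They are 9 of the 54532 genes listed in the deposited table and were taken by name. The list was chosen from the same 9 libraries with earlier results in view, so the levels and differences of these genes are given as a description, without a test. All animals lacked a working Apoe gene, which makes them prone to atherosclerosis, and were 6 to 8 weeks old when a regimen of 24 weeks began. The HFD_IO group received a high fat diet with intraperitoneal injection of ammonium iron(III) citrate, the HFD group received the high fat diet, and the CD group received chow, with 3 aortas in each group. The labels name no injection for HFD and CD, so the iron salt and the injection cannot be told apart. No library of mice with an intact Apoe gene was analysed here. By its title and design the series asks what iron overload adds to diet-driven atherosclerosis.

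IGF1 and IGF2 are secreted growth factors that act through the IGF1 receptor, a tyrosine kinase that signals to the PI3K-AKT and MAPK pathways and promotes growth and survival of vascular smooth muscle cells. Outside the cell most IGF is held by binding proteins, which lengthen its life in blood, keep it from the receptor or bring it to the cell surface. IGFBP7 belongs to the same superfamily but binds IGF only weakly. In the arterial wall, smooth muscle cells, fibroblasts, endothelial cells and macrophages can all make members of this family.

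Between 16660963 and 18308450 reads per library were read back from the deposited values, and 1 read in a gene of 1 kilobase was worth 0.0541 to 0.0615 FPKM, that is, fragments per kilobase with a correction for sequencing depth. Apoe itself was listed at 17.5 to 21.9 FPKM in HFD_IO, 9.73 to 15.1 in HFD and 10.9 to 14.5 in CD. These values are per gene and do not show whether the transcripts are disrupted. The aortic label was checked against 8 smooth muscle markers, which summed to 2501 to 4266 FPKM in HFD_IO, 6940 to 8086 in HFD and 5398 to 6042 in CD, with none at 0 in a whole group. Replicates were not alike. The chi-square of reads per degree of freedom was 6.41 between CD_2 and CD_3 and at least 26.2 in every other pair of replicates. CD_1 stood apart from CD_2 and CD_3 with 52.9 and 56.4, and HFD_3 from HFD_1 and HFD_2 with 55.0 and 40.9. HFD_IO_3 was at 45.4 from HFD_IO_1 and 38.1 from HFD_IO_2, which were at 27.6 from each other. HFD_3 also had the highest white and brown adipocyte marker sums, 1095 and 1425 FPKM. Libraries are named by their columns, whose numbers are not in the sample labels.

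The starts of the 5 binding protein genes whose upstream bases lie outside every gene of the table are shown, since these 5 include the widest differences of the family. Each line gives 250 bases before the start of transcription, from RefSeq on GRCm38.p6, written 5′ to 3′ on the strand of the gene. They are Igfbp2 at chr1:72824230-72824479 (plus strand, the upstream of its 2 starts in RefSeq), Igfbp3 at chr11:7213924-7214173 (minus strand), Igfbp4 at chr11:99040994-99041243 (plus strand), Igfbp6 at chr15:102143936-102144185 (plus strand) and Igfbp7 at chr5:77408046-77408295 (minus strand). For Igfbp2, Igfbp6 and Igfbp7 the bases after the RefSeq start were not found in a GENCODE M21 transcript of the gene. The Igfbp6 window ends at 102144185, while the listed gene starts at 102144362. Capitals mark matches, on either strand, to a TATA box (TATAAA), a GC box (GGGCGG), an AP-1 site (TGANTCA), an antioxidant response element core (TGACNNNGC) and an E-box (CACGTG).
Igfbp2: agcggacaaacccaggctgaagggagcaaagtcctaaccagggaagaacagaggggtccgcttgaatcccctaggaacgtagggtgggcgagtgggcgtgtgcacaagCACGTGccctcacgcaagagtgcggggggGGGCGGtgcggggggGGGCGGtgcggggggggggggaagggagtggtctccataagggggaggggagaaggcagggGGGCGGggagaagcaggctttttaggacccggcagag
Igfbp3: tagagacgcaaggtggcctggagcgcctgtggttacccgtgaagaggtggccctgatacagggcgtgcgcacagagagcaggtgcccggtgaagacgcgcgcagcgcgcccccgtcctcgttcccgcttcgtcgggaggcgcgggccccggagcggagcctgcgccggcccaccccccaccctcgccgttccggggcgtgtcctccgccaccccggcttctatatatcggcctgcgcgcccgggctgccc
Igfbp4: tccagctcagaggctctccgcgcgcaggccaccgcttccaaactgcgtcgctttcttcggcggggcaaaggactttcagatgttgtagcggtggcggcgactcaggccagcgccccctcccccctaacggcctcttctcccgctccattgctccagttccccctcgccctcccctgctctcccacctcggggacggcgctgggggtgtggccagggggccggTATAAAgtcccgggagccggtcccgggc
Igfbp6: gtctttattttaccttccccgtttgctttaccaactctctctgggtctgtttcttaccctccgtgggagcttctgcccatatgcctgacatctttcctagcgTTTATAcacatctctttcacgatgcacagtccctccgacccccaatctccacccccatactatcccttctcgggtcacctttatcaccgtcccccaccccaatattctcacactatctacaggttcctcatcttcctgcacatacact
Igfbp7: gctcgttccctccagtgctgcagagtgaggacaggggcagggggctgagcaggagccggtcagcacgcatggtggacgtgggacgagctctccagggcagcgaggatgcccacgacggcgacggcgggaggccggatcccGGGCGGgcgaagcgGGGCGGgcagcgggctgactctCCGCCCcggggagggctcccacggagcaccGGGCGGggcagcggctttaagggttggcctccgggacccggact
The matches are 3 GC boxes and 1 E-box in Igfbp2, 1 TATA box in Igfbp4, 1 TATA box on the opposite strand in Igfbp6 and 4 GC boxes in Igfbp7, of which 1 is on the opposite strand. None of these matches overlaps another, and the letters searched are not in the Igfbp3 window. Among 32851 promoters of the same length, 12.37% hold the TATA box letters, 32.74% the GC box, 6.75% the AP-1 site, 10.16% the antioxidant core and 6.02% the E-box. The G and C content is 67.2% in Igfbp2, 73.2% in Igfbp3, 69.2% in Igfbp4, 49.6% in Igfbp6 and 74.0% in Igfbp7, where the median promoter has 52.4%. A match is a description of letters and not evidence of binding.

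Transcripts of the family were mostly those of binding proteins. On the FPKM scale, which is per length, Igfbp7 was highest and Igfbp4 next in every group, and neither overlapped the member below it. In HFD_IO the order went on with Igfbp5, Igfbp6, Igfbp2, Igf1, Igfbp3 and Igf1r, and in HFD with Igfbp6, Igfbp5, Igfbp2, Igf1, Igf1r and Igfbp3. In CD it went on with Igfbp5, Igfbp6, Igfbp2, Igf1r, Igf1 and Igfbp3. Igf2 was last in all 3 groups. Neighbours whose libraries overlapped were Igfbp6 with Igfbp2, Igfbp2 with Igf1, and Igfbp3 with Igf1r in HFD_IO, Igfbp5 with Igfbp2 in HFD, and Igfbp2 with Igf1r and Igf1r with Igf1 in CD. All members but Igf2 passed the filter of at least 1 FPKM in at least 3 libraries, on between 103 and 65609 reads per gene and library.

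**Figure D1:**
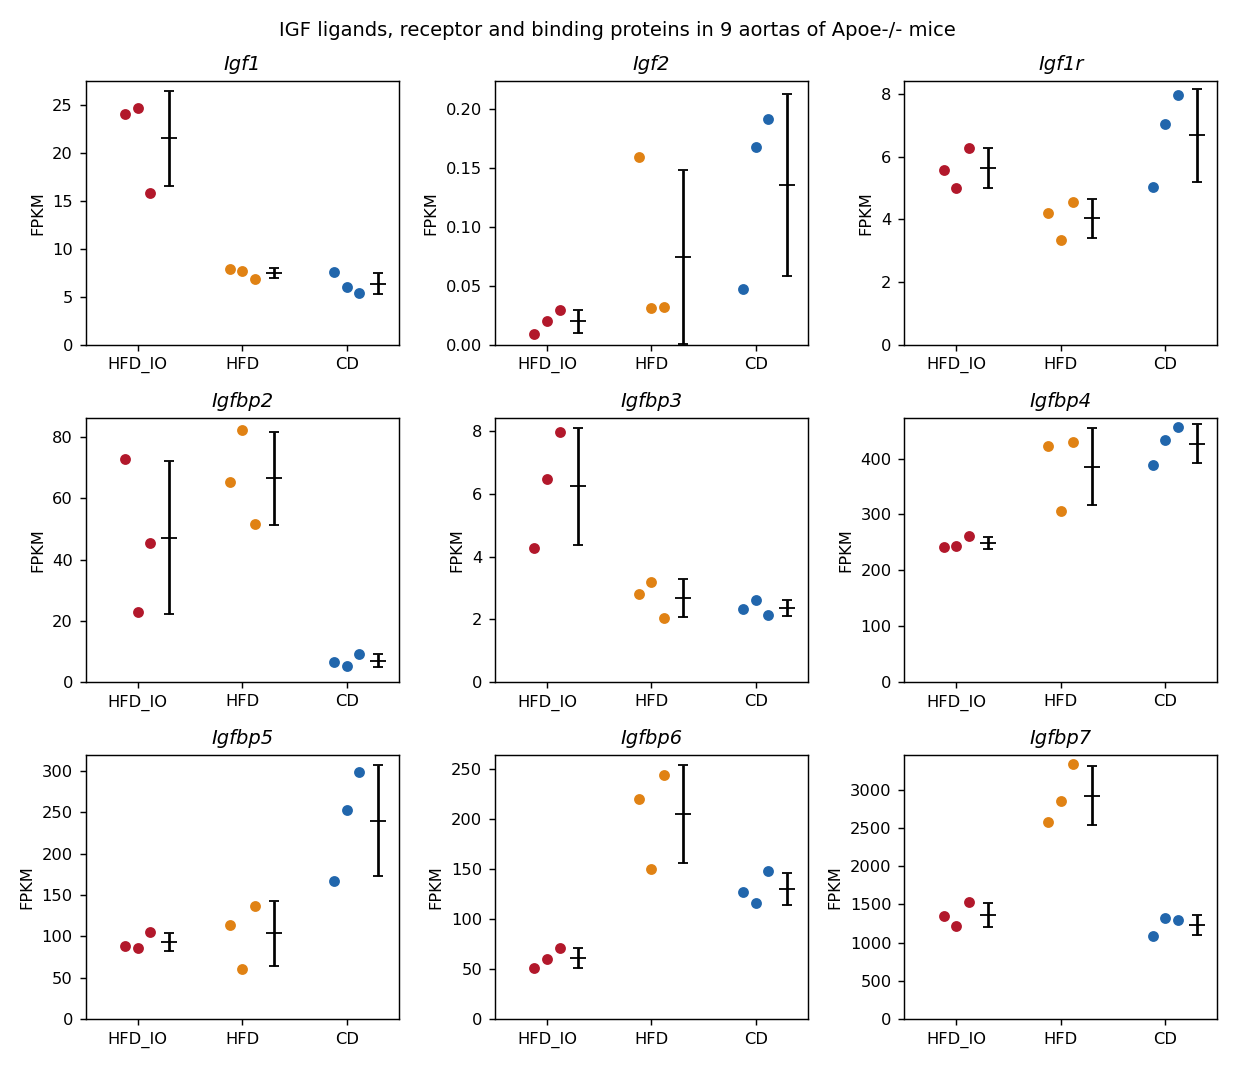
FPKM of each family gene in each library, with HFD_IO, HFD and CD from left to right in every panel, points for single aortas and bars for mean and SD (n = 3). Igf1 and Igfbp3 are highest in HFD_IO, Igfbp6 and Igfbp7 in HFD, and Igfbp5 in CD, while Igfbp2 is low in CD only.

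Igf1, the ligand that drives growth after birth, was higher in the iron-injected aortas than in both other groups. The gene (ENSMUSG00000020053, chr10:87858265-87937042, GRCm38, plus strand) had 24.1, 24.7 and 15.9 FPKM in the HFD_IO libraries. It had 7.92, 7.67 and 6.84 FPKM in the HFD libraries and 7.58, 6.07 and 5.44 FPKM in the CD libraries. All 3 HFD_IO libraries stood above all 6 others, HFD_IO_3 nearest to them, while HFD and CD overlapped. The means were 21.6 ± 4.93 FPKM in HFD_IO, 7.48 ± 0.566 in HFD and 6.36 ± 1.10 in CD (SD, n = 3 each). The ratio of means was 2.88 between HFD_IO and HFD and 3.39 between HFD_IO and CD. On the log2(FPKM + 1) scale, used for all differences below, these were differences of 1.39 (SE 0.17) and 1.60 (SE 0.17), and that of HFD against CD was 0.21 (SE 0.17). Rescaling to TPM turned this last value to -0.14. In whole tissue, a change in the number of cells that make a transcript and a change in RNA per cell cannot be told apart, and this holds for every gene below.

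Igf2, the ligand of fetal growth, was near the limit of detection. It is an imprinted gene (ENSMUSG00000048583, chr7:142650766-142666816, minus strand) and was covered by 1, 2 and 3 reads in HFD_IO, 16, 3 and 3 in HFD, and 5, 17 and 20 in CD. In FPKM these are 0.00945, 0.0200 and 0.0297 in HFD_IO, 0.160, 0.0313 and 0.0323 in HFD, and 0.0475, 0.168 and 0.192 in CD. HFD_IO and HFD overlapped in reads, since HFD_IO_3, HFD_2 and HFD_3 had 3 each, and HFD and CD overlapped as well. With so few reads no ratio is given, and Igf2 entered none of the differences below. H19, the maternally expressed RNA of the same imprinted cluster, lies 72622 bases from Igf2 and was tested apart from the members. It averaged 1.22 ± 0.138 FPKM in HFD_IO, 1.42 ± 0.378 in HFD and 2.69 ± 0.456 in CD (SD, n = 3 each). H19 fell in HFD against CD (-0.61, SE 0.15, limma adjusted p = 0.0113) and in HFD_IO against CD (-0.73, SE 0.15, adjusted p = 0.00522), and did not pass the test between HFD_IO and HFD (-0.11, adjusted p = 0.601).

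Igf1r, the receptor that carries the signal of both ligands, was lowest in HFD. The gene (ENSMUSG00000005533, chr7:67952827-68233668, plus strand) had 5.58, 5.01 and 6.29 FPKM in HFD_IO, 4.20, 3.33 and 4.57 in HFD, and 5.05, 7.04 and 7.97 in CD. HFD did not overlap with either other group, and HFD_IO and CD overlapped because CD_1 was lower than CD_2 and CD_3. Means were 5.63 ± 0.638 FPKM in HFD_IO, 4.03 ± 0.637 in HFD and 6.68 ± 1.49 in CD (SD, n = 3 each). The differences were 0.40 (SE 0.16) for HFD_IO against HFD, -0.60 (SE 0.16) for HFD against CD and -0.20 (SE 0.16) for HFD_IO against CD. In TPM they were 0.60 for HFD_IO against HFD, -1.04 for HFD against CD and -0.44 for HFD_IO against CD. The last ran from -0.36 without CD_1 to -0.08 without CD_3.

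The other receptors of the pathway were tested apart from the members. Igf2r, which clears IGF2 and sorts lysosomal enzymes, had 19.7, 18.4 and 20.2 FPKM in HFD_IO, 10.1, 9.60 and 8.76 in HFD, and 6.36, 10.1 and 11.3 in CD. It rose in HFD_IO against HFD (0.96, SE 0.17, limma adjusted p = 0.00539) and against CD (1.03, SE 0.17, adjusted p = 0.00202), and HFD against CD gave 0.07 (adjusted p = 0.78). Insr, the insulin receptor, averaged 6.30 ± 0.611 FPKM in HFD_IO, 5.25 ± 0.749 in HFD and 8.10 ± 0.528 in CD (SD, n = 3 each). Insr fell in HFD against CD (-0.55, SE 0.11, adjusted p = 0.00591), and missed the threshold in HFD_IO against HFD (0.23, adjusted p = 0.154) and in HFD_IO against CD (-0.32, adjusted p = 0.0558). The ratio of Igf2r to Igf1r within a library was 3.47 ± 0.234 in HFD_IO, 2.41 ± 0.485 in HFD and 1.37 ± 0.0974 in CD (SD, n = 3 each), and the 3 groups did not overlap.

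Igfbp2, which binds both ligands and is secreted by many tissues including fat, showed the widest difference of the family. The gene (ENSMUSG00000039323, chr1:72824503-72852474, plus strand) had 72.8, 22.9 and 45.4 FPKM in HFD_IO, 65.4, 82.4 and 51.7 in HFD, and 6.48, 5.19 and 9.19 in CD. All 6 libraries on the high fat diet stood above all 3 CD libraries, and the HFD_IO libraries were spread over a wide range that overlapped HFD. Means were 47.1 ± 25.0 FPKM in HFD_IO, 66.5 ± 15.3 in HFD and 6.95 ± 2.04 in CD (SD, n = 3 each). The ratio of means was 9.57 for HFD over CD and 6.77 for HFD_IO over CD, with differences of 3.09 (SE 0.37) and 2.48 (SE 0.37). HFD_IO against HFD gave -0.61 (SE 0.37), between -0.99 without HFD_IO_1 and -0.18 without HFD_IO_2.

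Igfbp3, the main carrier of IGF1 in blood, was highest in HFD_IO. The gene (ENSMUSG00000020427, chr11:7206086-7213923, minus strand) had 4.27, 6.49 and 7.98 FPKM in HFD_IO, 2.81, 3.19 and 2.03 in HFD, and 2.31, 2.63 and 2.14 in CD. All 3 HFD_IO libraries lay above the 6 others, and HFD and CD overlapped. Means were 6.25 ± 1.87 FPKM in HFD_IO, 2.68 ± 0.595 in HFD and 2.36 ± 0.246 in CD (SD, n = 3 each). The ratio of means was 2.33 for HFD_IO over HFD and 2.65 for HFD_IO over CD, with differences of 0.96 (SE 0.20) and 1.08 (SE 0.20). HFD against CD gave 0.12 (SE 0.20), which turned to -0.20 in TPM.

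Igfbp4, which holds IGF1 until the protease PAPP-A cuts it, was lowest in HFD_IO. The gene (ENSMUSG00000017493, chr11:99041244-99054392, plus strand) had 242, 243 and 261 FPKM in HFD_IO, 422, 306 and 429 in HFD, and 389, 434 and 458 in CD. Every HFD_IO library lay below every other library, and HFD_2 was the lowest of the rest. Means were 249 ± 11.0 FPKM in HFD_IO, 385 ± 69.3 in HFD and 427 ± 34.8 in CD (SD, n = 3 each). The differences were -0.61 (SE 0.15) for HFD_IO against HFD, -0.16 (SE 0.15) for HFD against CD and -0.77 (SE 0.15) for HFD_IO against CD. HFD against CD depended on the scaling, at -0.55 in TPM and -0.63 by quantile normalization, and was -0.0010 without HFD_2. HFD_IO against HFD was -0.30 by quantile normalization.

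Igfbp5, a binding protein that also attaches to extracellular matrix, was highest in CD. The gene (ENSMUSG00000026185, chr1:72857932-72874884, minus strand) had 88.2, 86.4 and 106 FPKM in HFD_IO, 114, 60.3 and 137 in HFD, and 167, 253 and 299 in CD. All 3 CD libraries lay above all 6 libraries on the high fat diet, which overlapped among themselves. Means were 93.4 ± 10.7 FPKM in HFD_IO, 104 ± 39.3 in HFD and 239.8 ± 67.0 in CD (SD, n = 3 each). The differences were -1.24 (SE 0.31) for HFD against CD and -1.32 (SE 0.31) for HFD_IO against CD. With 1 library left out, HFD against CD ran from -1.48 without CD_1 to -0.89 without HFD_2, and HFD_IO against CD from -1.55 without CD_1 to -1.14 without CD_3. HFD_IO against HFD gave -0.08 (SE 0.31), with its sign turned in TPM (0.08), by quantile normalization (0.20), and without HFD_1 (0.03) or HFD_3 (0.16). Igfbp2 and Igfbp5 lie tail to tail, 5457 bases apart with 0 listed genes between them, and their profiles were the farthest apart of any pair of members. Igfbp2 was low in CD, where Igfbp5 was high.

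Igfbp6, which prefers IGF2 over IGF1, was lower in the iron-injected aortas than in those on the high fat diet alone, by the widest difference of that comparison in FPKM. In TPM that of Igf1 was wider, at 1.61 beside -1.57 for Igfbp6. The gene (ENSMUSG00000023046, chr15:102144362-102149511, plus strand) had 51.4, 59.8 and 71.1 FPKM in HFD_IO, 220, 149.9 and 244 in HFD, and 127, 116 and 148 in CD. No group overlapped another, with HFD_IO lowest, CD between and HFD highest. Means were 60.8 ± 9.92 FPKM in HFD_IO, 205 ± 48.9 in HFD and 130.2 ± 16.1 in CD (SD, n = 3 each). The differences were -1.72 (SE 0.20) for HFD_IO against HFD, 0.63 (SE 0.20) for HFD against CD and -1.09 (SE 0.20) for HFD_IO against CD. The middle value moved to 0.23 in TPM and 0.15 by quantile normalization.

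Igfbp7, a secreted protein abundant in vessel walls, was the most abundant member and was highest in HFD. The gene (ENSMUSG00000036256, chr5:77349240-77408041, minus strand) had 1346, 1215 and 1529.7 FPKM in HFD_IO, 2585, 2850 and 3340 in HFD, and 1080, 1318 and 1289 in CD. The HFD libraries stood above all others, and HFD_IO and CD overlapped. Means were 1364 ± 158 FPKM in HFD_IO, 2925 ± 383 in HFD and 1229 ± 129.8 in CD (SD, n = 3 each). The difference was -1.10 (SE 0.18) for HFD_IO against HFD, a ratio of 0.466, and 1.25 (SE 0.18) for HFD against CD, a ratio of 2.38. Quantile normalization gave -0.81 and 0.41 for these. HFD_IO against CD gave 0.15 (SE 0.18), which turned to -0.09 in TPM and -0.40 by quantile normalization. Polr2b, a polymerase subunit gene on the opposite strand, overlaps Igfbp7 and reached 18.7 FPKM. At most 1451 reads per library were counted for Polr2b, beside 24014 to 65609 for Igfbp7. No strand setting is given in the sources used here, and reads of overlapping genes cannot be told apart.

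**Figure D2:**
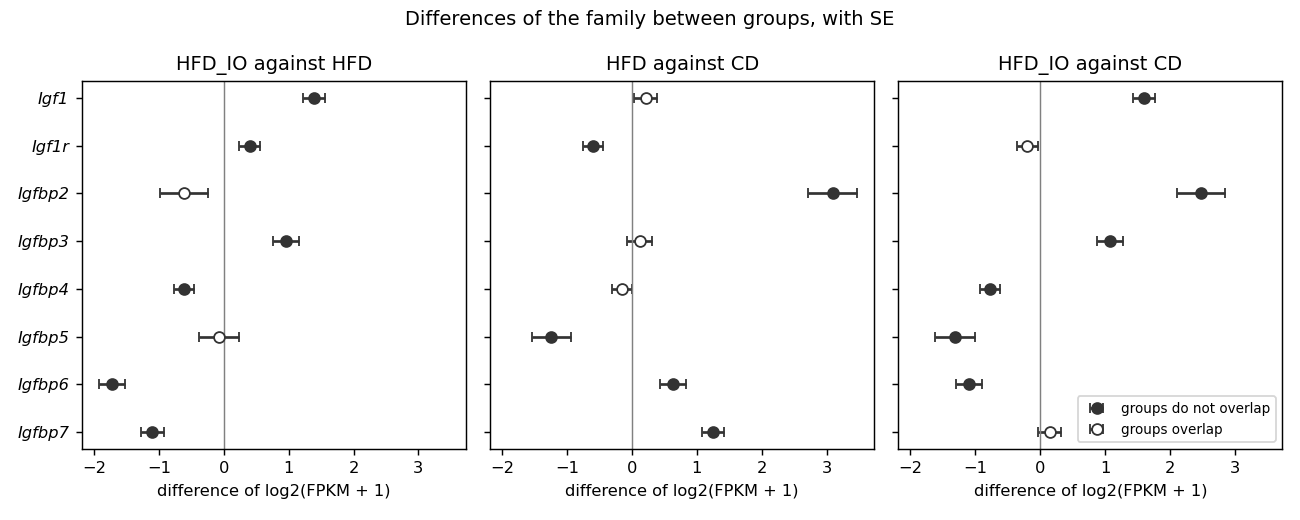
Difference of log2(FPKM + 1) for the 8 members past the filter, as HFD_IO against HFD, HFD against CD and HFD_IO against CD, with bars for the limma SE; filled points are groups that do not overlap. In the left panel Igf1 lies at 1.39 and Igfbp6 at -1.72, and in the middle panel Igfbp2 lies at 3.09 and Igfbp5 at -1.24.

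The make-up of the binding protein transcripts differed between diets. Summed over Igfbp2 to Igfbp7, the binding proteins reached 1820 ± 194 FPKM in HFD_IO, 3688 ± 447 in HFD and 2035 ± 231 in CD (SD, n = 3 each), and HFD overlapped with neither other group. Igfbp7 made up 74.9 ± 0.697% of this sum in HFD_IO, 79.3 ± 3.39% in HFD and 60.4 ± 1.79% in CD (SD, n = 3 each). Igfbp4 made up 13.7% in HFD_IO, 10.5% in HFD and 21.0% in CD, and Igfbp5 made up 5.14% in HFD_IO, 2.78% in HFD and 11.6% in CD. The CD aortas thus held a larger part of Igfbp4 and Igfbp5 than either group on the high fat diet, with no overlap. Without Igfbp7 the sum was 456 ± 36.6 FPKM in HFD_IO, 763 ± 142 in HFD and 806 ± 112 in CD (SD, n = 3 each), and HFD_IO was then below all other libraries. Set against the ligand, there were 89.5 ± 33.1 FPKM of binding protein per FPKM of Igf1 in HFD_IO, 498 ± 101 in HFD and 330 ± 87.6 in CD (SD, n = 3 each). The highest HFD_IO library had 127 and the lowest of the others, CD_1, had 234. Igfbp7, which binds IGF only weakly, makes up most of this sum. Without Igfbp7 the ratio was 22.3 ± 7.58 in HFD_IO, 103 ± 24.0 in HFD and 131 ± 38.6 in CD (SD, n = 3 each). The HFD mean was then below that of CD and the 2 groups overlapped, while every HFD_IO library stayed below both. These are transcript levels, and protein was not measured in these files.

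**Figure D3:**
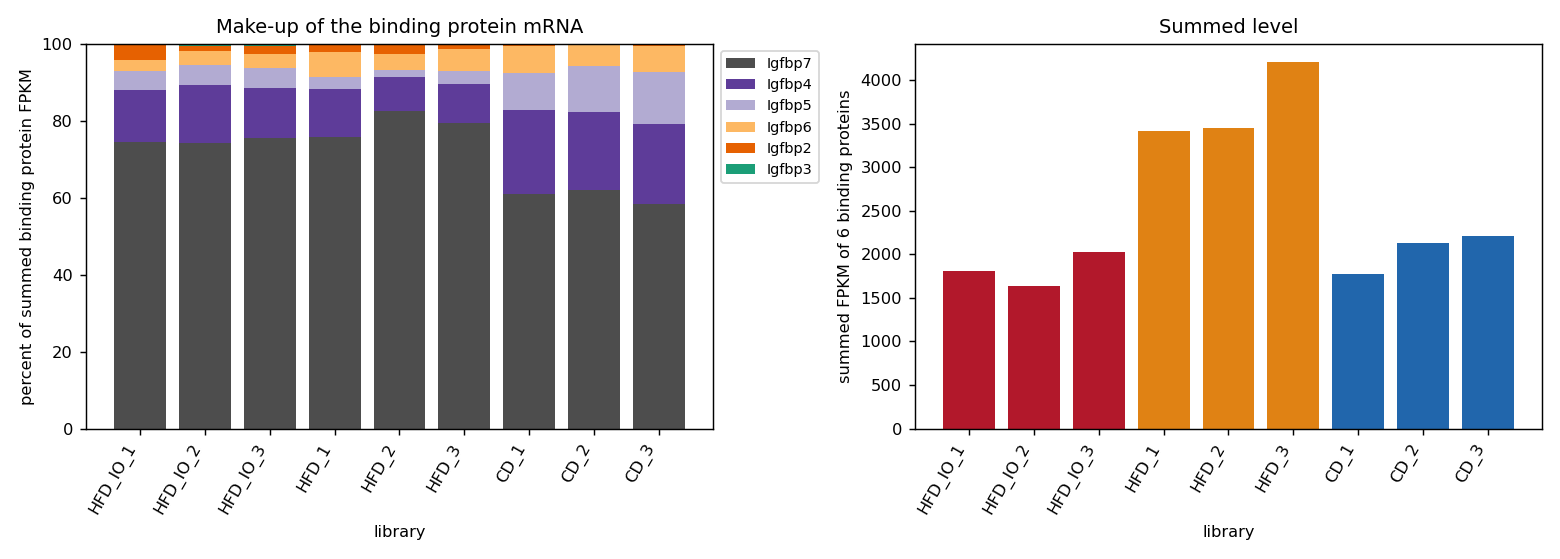
Left, percent of the summed binding protein FPKM that each binding protein makes up in each library; right, the summed FPKM. Igfbp7 makes up 74.4 to 75.7% in the HFD_IO libraries, 75.8 to 82.6% in the HFD libraries and 58.5 to 61.9% in the CD libraries.

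In HFD_IO against HFD, the comparison that bears on iron, Igf1, Igf1r and Igfbp3 were higher and Igfbp4, Igfbp6 and Igfbp7 lower with no overlap, 6 of the 8 members past the filter. Of all 13883 tested genes 48.5% had groups that did not overlap here, and nothing is read from the members' count, since they were chosen on these libraries. The members' median difference was -0.34, beside -4.19e-05 over all genes. The 8 macrophage markers summed to 4437 to 7657 FPKM in HFD_IO against 2788 to 4699 in HFD, and 7 of 8 rose. The smooth muscle markers were lower, as given above, and 5 of 8 fell, 3 of 9 fibroblast markers fell (sums of 1461 to 1850 FPKM in HFD_IO and 1977 to 2711 in HFD), and 3 of 8 endothelial markers rose (313 to 356 FPKM in HFD_IO, 154 to 276 in HFD). Of 5 tested brown adipocyte markers 3 fell, with sums of 183 to 261 FPKM in HFD_IO and 558 to 1425 in HFD, and of 7 tested cartilage markers 4 rose, with 194 to 633 FPKM in HFD_IO and 52.3 to 127 in HFD. Among white adipocyte markers 1 rose and 2 fell of 8, with sums of 323 to 670.01 FPKM in HFD_IO and 485 to 1095 in HFD, and of 6 tested skeletal muscle markers 1 fell, with 4.29 to 15.7 FPKM in HFD_IO and 8.17 to 97.6 in HFD. The part of these cell types in the members' differences was not tested.

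In HFD against CD, which bears on the diet, Igfbp2, Igfbp6 and Igfbp7 were higher and Igf1r and Igfbp5 lower with no overlap, 5 of 8 members. The share among all tested genes was 50.7%, and the members' median difference was 0.17 beside 0.06 over all genes. Of the macrophage markers 7 of 8 rose, with sums of 2788 to 4699 FPKM in HFD and 553 to 637 in CD, and 7 of 8 endothelial markers fell, with 154 to 276 FPKM in HFD and 450.3 to 677 in CD. None of 8 smooth muscle markers passed the limma test (0 adjusted, 3 at an unadjusted p under 0.05, and 0 by voom, a weighted fit of the recovered reads). Of 9 fibroblast markers 2 rose, with 1977 to 2711 FPKM in HFD and 1365 to 1813 in CD. Markers of tissues other than the vessel wall moved as well. Of 8 white adipocyte markers 4 rose, with 485 to 1095 FPKM in HFD and 160 to 363 in CD. Of 5 tested brown adipocyte markers 3 rose and 1 fell, with 558 to 1425 FPKM in HFD and 224 to 437 in CD. Of 6 tested skeletal muscle markers 3 rose (1 by voom), with sums of 4.67 to 10.9 FPKM in CD. The HFD sums were 8.17 FPKM in HFD_1, within the CD range, 97.6 in HFD_2 and 63.0 in HFD_3. Of 7 tested cartilage markers 5 rose (4 by voom), with 52.3 to 127 FPKM in HFD and 33.7 to 50.2 in CD. The part of these cell types in the members' differences was not tested. In HFD_IO against CD, Igf1, Igfbp2 and Igfbp3 were higher and Igfbp4, Igfbp5 and Igfbp6 lower with no overlap, 6 of 8 members, where 47% of all tested genes had no overlap. All 8 macrophage markers rose and 5 of 8 smooth muscle markers fell in that comparison. Of 7 tested cartilage markers 6 rose, with sums of 194 to 633 FPKM in HFD_IO and 33.7 to 50.2 in CD, and 3 of 8 endothelial markers fell, with 313 to 356 FPKM in HFD_IO and 450.3 to 677 in CD. Of 9 fibroblast markers 2 rose and 3 fell, of 8 white adipocyte markers 1 rose, of 5 tested brown adipocyte markers 1 fell, and of 6 tested skeletal muscle markers 0 passed the limma test (0 at an unadjusted p under 0.05 and 0 by voom). Their part in the members' differences was not tested either. The 3 comparisons share libraries and are not independent of each other.

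Gene length moved with the differences over all genes. In HFD_IO against HFD the median difference was -0.28 in the shortest of 5 length classes and 0.19 in the longest, and in HFD against CD it was 0.41 in the shortest and -0.21 in the longest. Igf1 and Igf1r are in the longest class, and Igfbp2, Igfbp6 and Igfbp7 in the shortest. The ratio of binding protein to Igf1 given above thus sets a sum made up mostly of Igfbp7 against a gene of the longest class. That ratio was not corrected for length. Less the median of its own class, the HFD_IO against HFD difference was 1.20 for Igf1, 1.06 for Igfbp3, 0.21 for Igf1r, -0.60 for Igfbp4, -1.44 for Igfbp6 and -0.82 for Igfbp7. Less the class median, HFD against CD was 2.68 for Igfbp2, 0.84 for Igfbp7, 0.22 for Igfbp6, -0.39 for Igf1r and -1.18 for Igfbp5. The differences listed here are those without overlap, and they kept their direction. Among the overlapping ones, Igfbp3 in HFD against CD was 0.12 before and -0.09 after this step, and Igfbp5 in HFD_IO against HFD was at -0.15.

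**Figure D4:**
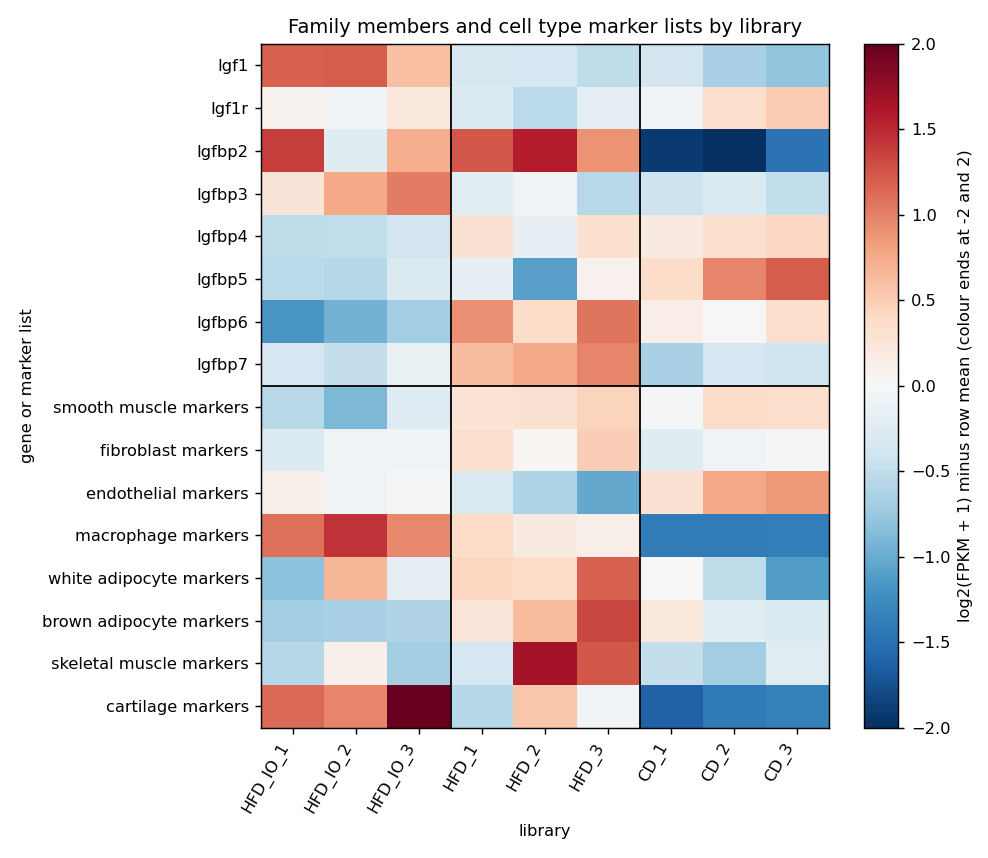
Each row is a family gene, or the mean over a list of cell type markers, as log2(FPKM + 1) less the row's mean over the 9 libraries, with HFD_IO, HFD and CD from left to right. Macrophage and cartilage marker rows are lowest in CD and highest in HFD_IO, smooth muscle and brown adipocyte marker rows are lowest in HFD_IO, and the Igf1 and Igfbp6 rows point opposite ways in HFD_IO.

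Around the members, 58 genes of the pathway were tested in 4 lists, with limma and Benjamini-Hochberg adjustment over all 13883 genes, and 48 of them passed the filter. In HFD_IO against HFD 9 rose and 5 fell, 29.2% of the 48, where 28.6% of all genes were called. In HFD against CD 5 rose and 10 fell, 31.2%, where 39.4% of all genes were called, and in HFD_IO against CD 8 rose and 6 fell, 29.2%, where 32.5% were called. In TPM 14 rose and 5 fell in HFD_IO against HFD, where 3533 of the 13883 genes were called, and the split moved to 2 risen and 21 fallen in HFD against CD and to 6 and 14 in HFD_IO against CD. Over all genes TPM called 1018 higher and 4948 lower in HFD against CD, and 1528 and 3800 in HFD_IO against CD. Quantile normalization gave 3 and 12 pathway genes in HFD against CD, beside 2224 and 2524 over all genes. In HFD_IO against CD it gave 7 and 8, beside 2235 and 2637 over all genes.

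Of the 17 other genes of the family and its regulators 8 passed the filter, and 2 rose and 1 fell in HFD_IO against HFD. Igf2bp2, an RNA-binding protein first found on the Igf2 transcript, averaged 2.69 ± 0.316 FPKM in HFD_IO, 0.728 ± 0.141 in HFD and 1.19 ± 0.315 in CD (SD, n = 3 each). It rose in HFD_IO against HFD (1.09, SE 0.14, adjusted p = 0.00182) and against CD (0.76, SE 0.14, adjusted p = 0.00383), like Igf2r above. Htra1, a secreted serine protease that cleaves IGF binding proteins, averaged 155 ± 21.4 FPKM in HFD_IO, 285 ± 22.6 in HFD and 167 ± 6.50 in CD (SD, n = 3 each). Htra1 fell in HFD_IO against HFD (-0.88, SE 0.13, adjusted p = 0.0026) and rose in HFD against CD (0.76, SE 0.13, adjusted p = 0.00272), a call lost by quantile normalization (adjusted p = 0.119, the highest of its 16 alternatives, which start at 0.0021). In HFD against CD 1 of the 8 rose and 2 fell, and in HFD_IO against CD 2 rose and 1 fell. Pappa, the protease that frees IGF1 from IGFBP4, averaged 0.359 ± 0.129 FPKM in HFD_IO, 0.177 ± 0.0439 in HFD and 0.257 ± 0.0224 in CD (SD, n = 3 each) and was below the filter. Igfbp1, the liver's insulin-controlled binding protein and the neighbour of Igfbp3, was at 0 in all libraries but CD_3, which had 0.04 FPKM. Stc2, an inhibitor of PAPP-A, averaged 1.72 ± 0.712 FPKM in HFD_IO, 2.88 ± 0.886 in HFD and 3.09 ± 0.911 in CD (SD, n = 3 each) and passed no test (adjusted p = 0.148, 0.835 and 0.102 for HFD_IO against HFD, HFD against CD and HFD_IO against CD).

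Inside the cell, 29 genes of the signal from the receptor to AKT, mTOR and FOXO were tested. The insulin receptor substrates Irs1 and Irs2 were not called. Irs1 averaged 1.11 ± 0.420 FPKM in HFD_IO, 1.06 ± 0.116 in HFD and 1.82 ± 1.01 in CD, and Irs2 9.21 ± 5.31 in HFD_IO, 10.1 ± 0.980 in HFD and 10.7 ± 2.23 in CD (SD, n = 3 each), with no adjusted p under 0.279. In HFD_IO against HFD 5 rose and 2 fell. Ptpn1, the phosphatase that switches off insulin and IGF1 receptors, averaged 45.7 ± 7.67 FPKM in HFD_IO, 22.2 ± 3.07 in HFD and 14.8 ± 2.58 in CD (SD, n = 3 each). It rose in HFD_IO against HFD (1.01, SE 0.17, adjusted p = 0.00413) and against CD (1.57, SE 0.17, adjusted p = 0.000186). Pik3cb, a catalytic subunit of PI3K, rose in HFD_IO against HFD (0.84, SE 0.12, adjusted p = 0.0023) and against CD (0.70, SE 0.12, adjusted p = 0.00209), at 8.48 ± 0.813 FPKM in HFD_IO, 4.28 ± 0.213 in HFD and 4.86 ± 0.796 in CD (SD, n = 3 each). Gsk3b, a kinase that AKT inhibits, rose by 0.54 in HFD_IO against HFD (adjusted p = 0.0067), and Grb14, an adaptor that restrains the insulin receptor, fell by 0.60 (adjusted p = 0.0136).

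In HFD against CD 3 of the 29 signal genes rose and 7 fell. Grb2, the adaptor that links receptors to RAS, averaged 52.4 ± 7.80 FPKM in HFD_IO, 39.0 ± 4.84 in HFD and 23.4 ± 3.36 in CD (SD, n = 3 each). It rose in HFD against CD (0.72, SE 0.15, adjusted p = 0.00713) and in HFD_IO against CD (1.13, SE 0.15, adjusted p = 0.000648), where 3 rose and 3 fell in all. Rheb, the small GTPase that activates mTORC1, rose in HFD against CD (0.58, SE 0.09, adjusted p = 0.00213). It fell in HFD_IO against HFD (-0.47, SE 0.09, adjusted p = 0.00725). Tsc2, which holds RHEB off, fell in HFD against CD (-0.59, SE 0.15, adjusted p = 0.0133). Ptpn1 also rose there (0.56, SE 0.17, adjusted p = 0.0278). The rises of Grb2, Rheb and Ptpn1 in HFD against CD were lost in TPM (adjusted p = 0.195, 0.13 and 0.488, each the highest of 16 alternatives, which start at 0.00451, 0.0014 and 0.0192). The call of Tsc2 was lost without CD_2 (0.0514) or CD_3 (0.0521) and was otherwise as low as 0.00159. The call of Ptpn1 was also lost with no filter (0.0583), by quantile normalization (0.0855), and without CD_1 (0.0641), HFD_1 (0.0758) or HFD_2 (0.088). Grb10, an adaptor that binds and restrains the IGF1 receptor, fell in HFD against CD (-0.53, SE 0.13, adjusted p = 0.0116). It also fell in HFD_IO against CD (-0.82, SE 0.13, adjusted p = 0.00135). In HFD_IO against HFD Grb10 was not called (-0.29, adjusted p = 0.121). Its means were 5.84 ± 0.548 FPKM in HFD_IO, 7.40 ± 1.38 in HFD and 11.1 ± 0.839 in CD (SD, n = 3 each).

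The growth hormone axis, which drives Igf1 in liver, was tested through 6 genes. In HFD_IO against HFD 0 of them passed the limma test, with 2 at an unadjusted p under 0.05 and 1 called by voom. Ghr, the growth hormone receptor, averaged 9.12 ± 2.60 FPKM in HFD_IO, 11.2 ± 2.57 in HFD and 9.88 ± 1.74 in CD (SD, n = 3 each), with adjusted p = 0.346 for HFD_IO against HFD, 0.578 for HFD against CD and 0.695 for HFD_IO against CD. Cish, a feedback inhibitor induced by STAT5, fell in HFD against CD (-0.80, SE 0.15, adjusted p = 0.00447) and in HFD_IO against CD (-0.52, SE 0.15, adjusted p = 0.0287), at 1.14 ± 0.190 FPKM in HFD_IO, 0.773 ± 0.313 in HFD and 2.05 ± 0.183 in CD (SD, n = 3 each). The second call was lost without CD_2 (0.0915), CD_3 (0.0805), HFD_IO_2 (0.0871) or HFD_IO_3 (0.0853), with adjusted p between 0.0154 and 0.0915 over its 15 alternatives. It was also lost with a pseudocount of 0.1 (0.0581) and with no filter (0.0714). Stat5a, a transcription factor downstream of the growth hormone receptor, rose in HFD_IO against CD (0.28, SE 0.09, adjusted p = 0.0368), a call lost in 8 of 15 alternatives (0.0278 to 0.504). These include the fits without CD_2 (0.103), CD_3 (0.104), HFD_IO_1 (0.0585), HFD_IO_2 (0.105) or HFD_IO_3 (0.107).

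The CCN proteins carry an IGF binding protein-like domain and act in the matrix, and 5 of their 6 genes passed the filter. In HFD_IO against HFD 2 rose and 2 fell. Ccn3 (Nov in the table) had 158, 146 and 268 FPKM in HFD_IO, 332, 454 and 407 in HFD, and 128, 140 and 158 in CD. It fell in HFD_IO against HFD (-1.10, SE 0.23, adjusted p = 0.00962) and rose in HFD against CD (1.47, SE 0.23, adjusted p = 0.00204), the only CCN call there, in the direction of the Igfbp6 and Igfbp7 means. Ccn2 (Ctgf), a matrix protein induced by TGF-beta, averaged 445 ± 188 FPKM in HFD_IO, 816 ± 68.6 in HFD and 749.8 ± 70.2 in CD (SD, n = 3 each). It fell in HFD_IO against HFD (-0.95, SE 0.25, adjusted p = 0.0239) and against CD (-0.82, SE 0.25, adjusted p = 0.0343). Both calls were fragile, with adjusted p up to 0.0984 and 0.121 and down to 0.00313 and 0.00145 over 16 alternatives. The call against HFD was lost without HFD_2 (0.0696), HFD_3 (0.068), HFD_IO_1 (0.0825) or HFD_IO_2 (0.0788), and that against CD without CD_1 (0.0796), CD_2 (0.0708), CD_3 (0.073), HFD_IO_1 (0.114) or HFD_IO_2 (0.121). With no filter both were lost (0.0918 against HFD and 0.118 against CD). Quantile normalization also lost the call against HFD (0.0984), and the fit of only the groups compared lost that against CD (0.0647).

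Ccn4 (Wisp1), a WNT target in mesenchymal cells, averaged 3.29 ± 0.236 FPKM in HFD_IO, 1.39 ± 0.336 in HFD and 1.28 ± 0.281 in CD (SD, n = 3 each). Ccn4 rose in HFD_IO against HFD (0.85, SE 0.14, adjusted p = 0.00384) and against CD (0.92, SE 0.14, adjusted p = 0.00118). Ccn5 (Wisp2), made by smooth muscle cells and fibroblasts, averaged 229 ± 9.51 FPKM in HFD_IO, 174 ± 26.2 in HFD and 163 ± 11.8 in CD (SD, n = 3 each). Ccn5 was at the threshold in HFD_IO against HFD (0.41, SE 0.13, adjusted p = 0.05), where 10 of 16 alternatives lost it (0.00364 to 0.124), among them the fits without any 1 library other than CD_1. It rose in HFD_IO against CD (0.49, SE 0.13, adjusted p = 0.0212), within a range of 0.00998 to 0.127. This call was lost in TPM (0.127), by quantile normalization (0.0565), and without CD_3 (0.0588), HFD_IO_2 (0.0633) or HFD_IO_3 (0.0615).

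**Figure D5:**
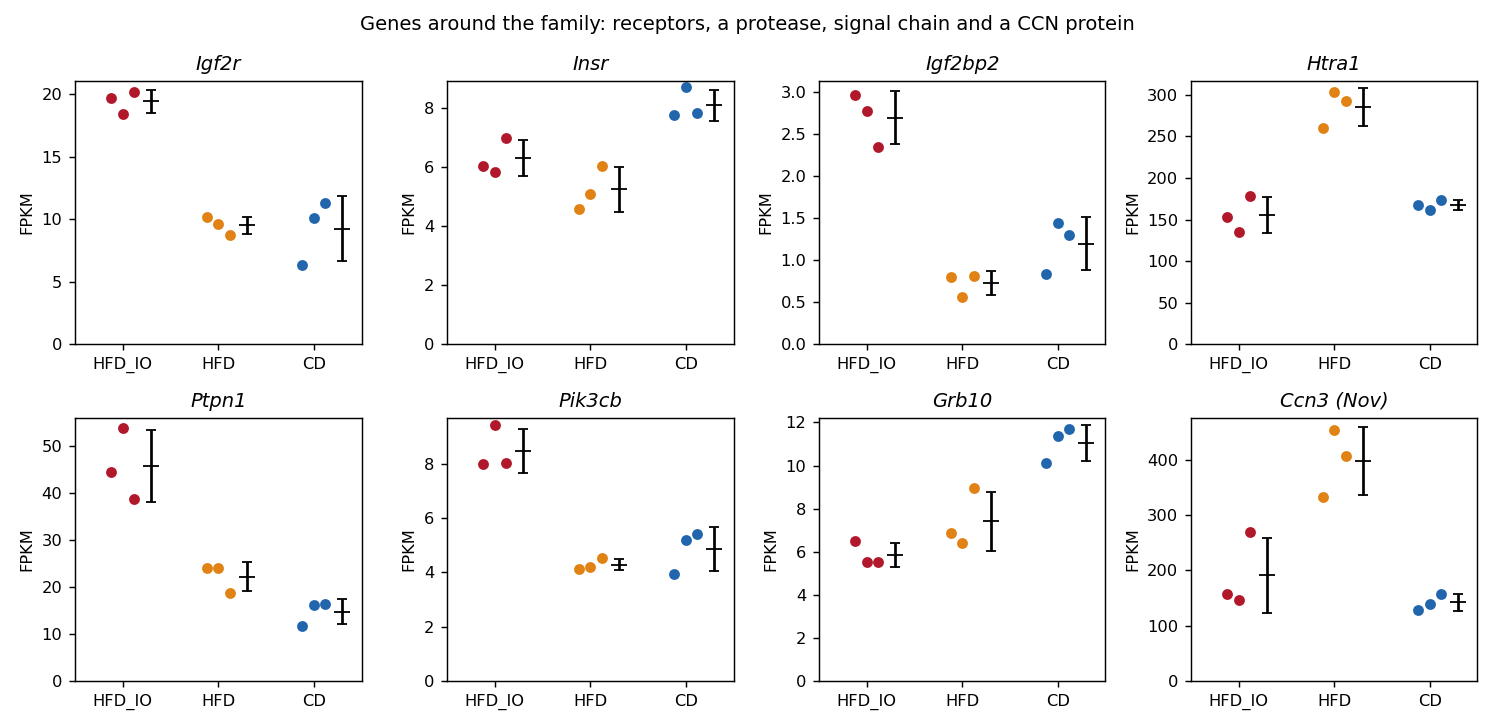
FPKM of 8 tested genes around the family in each library, with HFD_IO, HFD and CD from left to right in every panel and bars for mean and SD (n = 3). Igf2r, Igf2bp2, Ptpn1 and Pik3cb stand highest in HFD_IO, Htra1 and Ccn3 in HFD, and Insr and Grb10 in CD.

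Likeness of profiles was measured as the mean absolute distance between log2(FPKM + 1) values over the 9 libraries, each profile centred on its own mean, among 12333 named genes. Nearest to Igf1 were Osbpl8, a lipid transfer protein (0.13), Lcp2, an adaptor of immune cells (0.13), and Zranb3, a DNA repair enzyme (0.13), where the median gene was at 0.69. Nearest to Igf1r were Ptpn23 (0.06), Mamld1 (0.06) and Tead1 (0.06), with a median of 0.35. Nearest to Igfbp3 were Emp1 (0.12), the ferroxidase gene Cp (0.13) and Rab11fip4 (0.13), with a median of 0.50.

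The genes near Igfbp2 lay farther off than those near the other members. This distance grows with the width of a gene's own differences, which was greatest for Igfbp2. Genes near Igfbp2 were the clotting factor gene F7 (0.44) and the cathepsin gene Ctsl (0.48), with a median of 1.28. Nearest to Igfbp4 were Thbs3 (0.07), Tceal5 (0.08) and Sult5a1 (0.08), with a median of 0.38, and nearest to Igfbp5 were Wnt2b (0.18), Adam11 (0.19) and Cacna1g (0.20), with a median of 0.63. Nearest to Igfbp6 were Nrtn (0.18), Nkain4 (0.19) and Id1 (0.19), with a median of 0.67, and nearest to Igfbp7 were Kcns3 (0.10), Fgl2 (0.11) and Ndufb6 (0.11), with a median of 0.54. Within the family the closest pair was Igf1 with Igfbp3 (0.32), followed by Igf1r with Igfbp4 (0.38) and Igfbp4 with Igfbp5 (0.38), and the farthest was Igfbp2 with Igfbp5 (1.81).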

How the data were processed

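RNA of 9 aortas was sequenced, from libraries made with an NEBNext kit per the labels' protocols. The authors deposited FPKM per gene with 1 column per library. The submitters' processing notes name HISAT2 and, for genome, hg38, although 54409 of the 54532 gene IDs are mouse genes of GENCODE M21 (GRCm38), 98.33% of them at the same coordinates. The counting tool is not given in the sources used here. FPKM times gene length gave whole reads (within 0.05) for 100% of values above 0, and the denominators were 0.895 to 1.104 times the summed reads, so the authors' scaling was not by plain totals.

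Differences are of log2(FPKM + 1), which understates changes of low genes, for the 13883 genes that reached 1 FPKM in 3 or more of the 9 libraries. All libraries entered 1 limma 3.58.1 fit (R 4.3.3, 3 group means, mean-variance trend), with Benjamini-Hochberg adjustment over all genes and a threshold of 0.05. The labels give separate aortas, and p-values measure the spread between these 9. The fit was tested on simulated data.

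The members and gene lists were chosen with earlier results of these data known. Named genes are all members, up to 4 called genes of each pathway list with the largest absolute difference, 9 pathway genes whether called or not, and the 3 genes nearest to each member. A gene that meets this rule is not reported here. Alternatives were a pseudocount of 0.1, no filter, a filter of 5 FPKM, TPM, quantile normalization, only the groups compared, leaving out each library, and, chosen after seeing the data, voom on the recovered reads. No protein sequences were used here.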

Additional observations from a re-analysis of the deposited data

How the results depend on the processing

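Of 381 alternative values for the 24 member differences under 16 settings, 363 moved by less than 1 SD of the replicates and 18 by more. Most of the 363 could not move by 1 SD, so their number does not measure robustness. No filter (24 values), the filter of 5 FPKM (21) and only the groups compared (24) return the same difference by construction. In TPM 11 values moved by more than 1 SD and 13 did not, and by quantile normalization 7 did and 17 did not. In all, 8 values changed sign, each for a difference whose groups overlap. Leaving out any 1 library gave 216 of the values, and none of these could move by 1 SD in groups of this size. Where the library left out was in neither group compared, the difference stayed the same by construction. No conclusion on robustness is drawn from these 216 labels. TPM shifted the median difference of all genes to 0.14 in HFD_IO against HFD, -0.30 in HFD against CD and -0.23 in HFD_IO against CD. Its calls over all genes were 2373 higher and 1160 lower in HFD_IO against HFD (1956 and 2013 in FPKM), 1018 and 4948 in HFD against CD (3030 and 2440) and 1528 and 3800 in HFD_IO against CD (2427 and 2089). Quantile normalization gave 2224 and 2524 in HFD against CD. The calls in HFD_IO against HFD, 3969 in all, ranged from 2275 without HFD_3 to 4944 without CD_1, with 2551 without HFD_IO_1 and 2511 without HFD_IO_2. Of the pathway genes 15 were called in HFD against CD and 23 in TPM, and 14 in HFD_IO against CD, 9 with the filter of 5 FPKM and 9 to 20 with 1 library left out (9 without CD_3 or HFD_IO_2, 20 without CD_1). The cause was not tested. The planned count test was not run, and voom took its place. No paired analysis was run, because the labels give separate aortas and name no pairing between groups. Depth limits Igf2, with 1 to 20 reads per library.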
